A study of Mus musculus with 21 samples.

Results

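Eosinophils treated with cytokines and titled T2 were set against resting eosinophils of the same mouse series. The comparison used 6 of the 21 libraries, chosen by their sample titles: 3 T2 libraries and 3 resting libraries, whose counts stand together in 1 of the 3 deposited tables. All 6 are labelled as eosinophils of WT genotype. The treatment given for the T2 libraries is IL-4 and GM-CSF in each. IL33 is named in addition for replicate 1, IL34 for replicate 2 and IL35 for replicate 3. These interleukin numbers rise with the replicate number, and whether different interleukins were used cannot be told from the labels. The resting libraries are labelled untreated. The doses, the hours of treatment and the age and sex of the mice are not given in the sources used here. The growth text is the same for every sample of the series and describes eosinophils grown from bone marrow cells, first in SCF and FLT3-Ligand and then in IL-5. Whether it applies to these 6 libraries, and whether replicates came from separate mice or cultures, is not stated, so p-values measure the spread between these libraries, which may be technical. The series as a whole follows iron in eosinophils, and this comparison asks how eosinophils change under cytokines that stand for an allergic response.

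Eosinophils are granulocytes of the blood, gut and allergic airway. IL-5 sustains them, GM-CSF and IL-5 signal through receptors that share the beta chain Csf2rb and activate STAT5, and IL-4 signals through Il4ra and STAT6. IL-33 signals through ST2, the product of Il1rl1, to NF-kB and MAP kinases. Activated eosinophils release stored granule proteins and secrete cytokines, chemokines and lipid mediators.

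Total counts per library were 17684961 to 18995878 in T2 and 16073573 to 18093548 in resting libraries. The first principal component held 90.6% of the variance and separated T2 from resting libraries. The second held 2.95% and set resting library 2 apart from the other 5. That library had 15155 genes with at least 1 count, whereas the other 5 had 13941 to 14435. It also held RNA of genes that neurons and glia express: 23 brain genes, listed after the values had been seen, summed to 19.02, 16.4 and 17.1 CPM (counts scaled to library size) in the T2 libraries and to 26.1, 161 and 17.7 CPM in the resting libraries. Among 10754 genes at 1 CPM or more at rest, 122 were at least 2-fold higher in resting library 2 than in both other resting libraries. Of these, 42 were called at least 2-fold lower with T2, and 5 without resting library 2. None of the 122 exceeded 12.3 CPM on average in T2 libraries. Without that library 8323 of 11454 tested genes were called, 1374 of them at least 2-fold higher and 1750 at least 2-fold lower, within 1.5 times the counts given below.

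**Figure D1:**
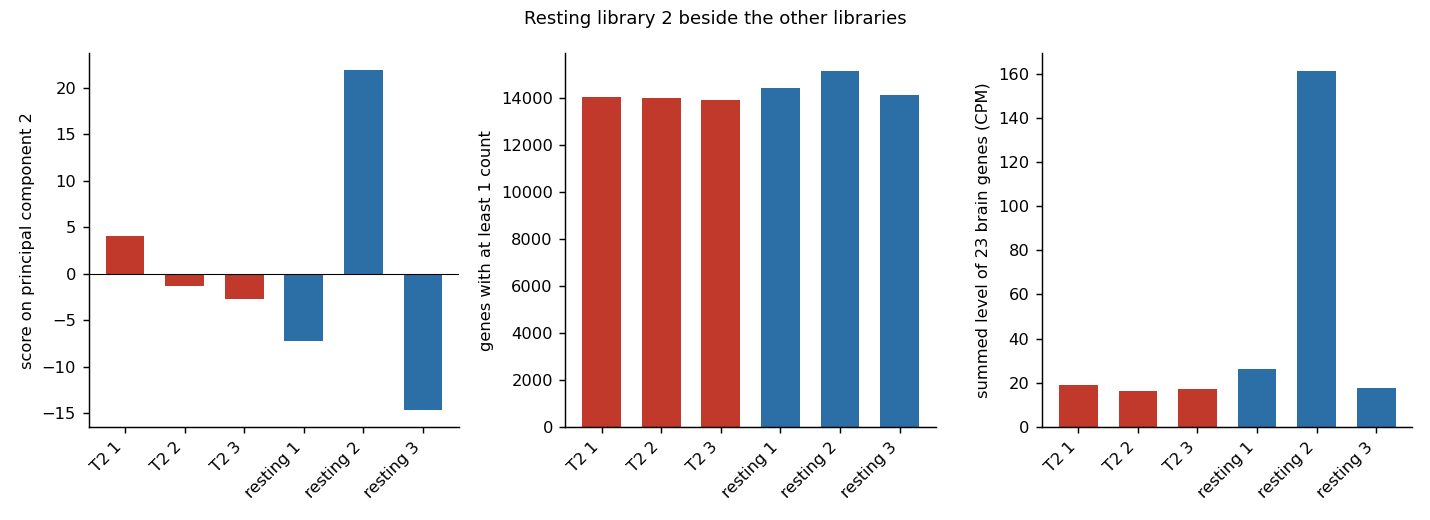
Bars show, for the 3 T2 and the 3 resting libraries, the score on the second principal component, the number of genes with at least 1 count, and the summed CPM of 23 brain genes. Resting library 2 is the highest in each panel, with 161 CPM of brain genes where the other 5 libraries have 16.4 to 26.1 CPM.

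The labelled cell type was checked against marker genes. The 10 eosinophil markers summed to 6082 to 6210 CPM in T2 and 7495 to 7854 CPM in resting libraries, and 2 of them were called higher and 7 lower. The 15 neutrophil markers summed to 946 to 983 CPM in T2 and 1968 to 2206 CPM in resting libraries. Retnlg, a resistin-like gene, gave the largest part of it, with 414, 443 and 438 CPM in the T2 libraries, against 1427, 1410.5 and 1648 CPM in the resting libraries. The granule gene Ngp followed, with 279.6, 296 and 285 CPM in the T2 libraries, against 474, 455 and 441 CPM in the resting libraries. Cxcr2, also on that list, was higher in T2 and is described with the receptors. The neutrophil surface marker Ly6g had 1.104, 1.03 and 1.73 CPM in the T2 libraries, against 2.42, 2.605 and 3.24 CPM in the resting libraries, and S100a8 5.95, 3.59 and 7.89 CPM in the T2 libraries, against 8.48, 5.92 and 7.92 CPM in the resting libraries. None of the 15 was at 0 in all 6 libraries. The 16 monocyte and macrophage markers summed to 6379 to 6632 CPM in T2 and 2606 to 2697 CPM in resting libraries, mostly Adgre1 (F4/80), which mouse eosinophils carry too. The macrophage gene Marco was at 0 in all 6 libraries, C1qa had 1.47, 0.669 and 0.615 CPM in the T2 libraries, against 0.505, 0.613 and 0.405 CPM in the resting libraries, and Lyz2 had 17.8, 17.4 and 18.2 CPM in the T2 libraries, against 169.5, 159 and 171 CPM in the resting libraries. The 12 mast cell and basophil markers summed to 500.1 to 549 CPM in T2 and 112 to 120.0 CPM in resting libraries, mostly Hdc, the histamine-forming enzyme, while Tpsb2 was at 0 in all 6. The 12 T and NK cell markers summed to 51.4 to 55.4 CPM in T2 and 38.1 to 46.4 CPM in resting libraries. Their part in the results below was not tested. In bulk RNA, fewer cells of a type and less RNA per cell cannot be told apart.

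After a filter on low counts, 11345 genes were tested with the 2-sided quasi-likelihood test of edgeR and called at a Benjamini-Hochberg adjusted p under 0.05 over all of them. T2 libraries differed from resting libraries in 8632 genes, 76.1% of those tested. Of these 4329 were higher (38.2% of the tested genes) and 4303 lower (37.9%). At least 2-fold higher were 1326 genes (11.7%), and at least 2-fold lower were 1796 (15.8%). The values of the T2 and resting libraries did not overlap for 8819 genes (77.7%), so a call or a lack of overlap by itself sets no gene or list apart here. The falls outnumbered the rises at 2-fold, and the rises outnumbered the falls at the largest sizes: 216 genes rose and 160 fell by at least 8-fold, 113 rose and 43 fell by at least 16-fold, and 34 rose and 10 fell by at least 64-fold. The median log2 fold change (T2 over resting) over all tested genes was -0.01. With upper-quartile scaling it moved by -0.12, and all fold changes with it.

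**Figure D2:**
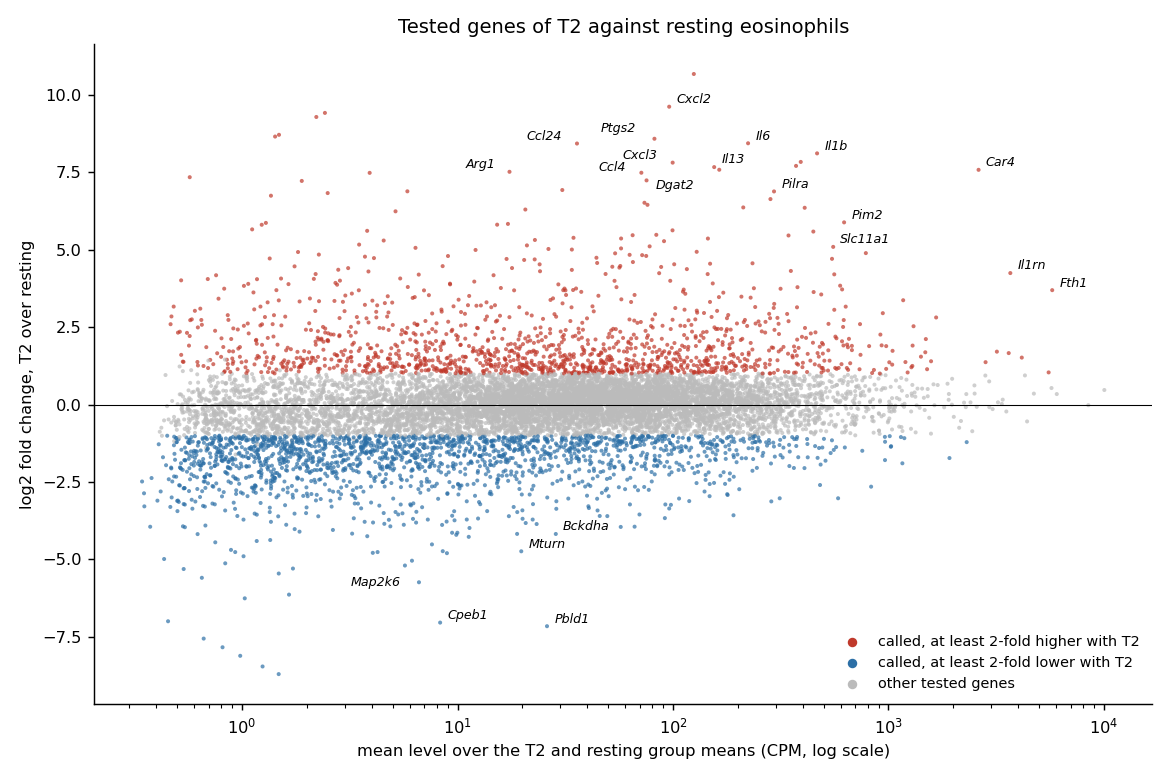
Each point is 1 of 11345 tested genes, with the mean of the T2 and resting levels (CPM, log axis) on the horizontal axis and the log2 fold change, T2 over resting, on the vertical axis. Red points are the 1326 genes called at least 2-fold higher and blue points the 1796 called at least 2-fold lower. Several rises of secreted cytokine and chemokine genes lie far from 0, some with few counts at rest. Cxcl2 had 13 counts and Ccl24 11 counts over the 3 resting libraries.

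Among genes at 10 CPM or more in the higher group, 9 of the 15 largest rises were of interleukins or chemokine ligands, namely Cxcl2, Il6, Ccl24, Il1b, Ccl3, Cxcl3, Il1a, Il13 and Ccl4. Ptgs2, Clec4n, Car4, Arg1 and Dgat2, described with their pathways, were among the 15 too. Car4, a membrane-anchored carbonic anhydrase, reached the highest level of the 15 with 5162, 5231 and 5237 CPM in the T2 libraries, against 27.6, 26.6 and 27.8 CPM in the resting libraries (log2 fold change 7.57, SE 0.04904, edgeR adjusted p 1.79e-21). Per length, in the authors' FPKM, Car4 ranked 8th of all genes in T2 libraries and 3223rd at rest. Car4 lies on chromosome 11 from 84957786 to 84966044 (GRCm38).

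The largest fall was that of Pbld1, a gene of the phenazine biosynthesis-like domain family, with 0.307, 0.426 and 0.336 CPM in the T2 libraries, against 53.7, 47.5 and 53.7 CPM in the resting libraries (log2 fold change -7.15, SE 0.144, edgeR adjusted p 3.81e-16). Cpeb1, which binds polyadenylation elements of messenger RNA, had 0.123, 0.0608 and 0.168 CPM in the T2 libraries, against 16.8, 16.8 and 15.9 CPM in the resting libraries (log2 fold change -7.04, SE 0.225). Both genes were near 0 in T2 libraries and well above it in every resting library. Map2k6, the MAP kinase kinase that activates p38, fell by 5.74 on the log2 scale, Fbxo32, a ubiquitin ligase subunit, by 4.80, and Pdk2, an inhibitor of pyruvate dehydrogenase, by 4.27. Thsd4, Csrp2, Mturn, Abhd15, Aph1c, Cd1d1, Bckdha, Frat2, Bbs9 and Atp8a2 made up the rest of the 15 largest falls, with log2 fold changes of -5.19 to -4.14.

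Most of the tested interleukin and growth factor genes were higher in T2 eosinophils. On the interleukin and growth factor list 19 of 36 listed genes were tested, 14 called higher and 1 lower, 13 and 1 of them by at least 2-fold, with a median log2 fold change of 1.89. Il6 had 489, 466 and 379 CPM in the T2 libraries, against 1.52, 1.02 and 1.33 CPM in the resting libraries (log2 fold change 8.43, SE 0.135, edgeR adjusted p 3.37e-17). The IL-1 family genes stood high as well: Il1b had 989, 932 and 866 CPM in the T2 libraries, against 4.21, 3.22 and 2.66 CPM in the resting libraries (log2 fold change 8.11, SE 0.0942), and Il1a 775, 813 and 635 CPM in the T2 libraries, against 3.15, 2.66 and 4.97 CPM in the resting libraries (log2 fold change 7.70, SE 0.136). The lowest T2 library lay far above the highest resting library for each of these 3 genes. Il1rn, whose product blocks the IL-1 receptor, was already high at rest, with 7119, 7100.2 and 6735 CPM in the T2 libraries, against 359, 372 and 376 CPM in the resting libraries (log2 fold change 4.24, SE 0.0431). Per length it ranked 9th in T2 libraries and 271st at rest, with 3725 ± 105 FPKM in T2 and 260.4 ± 5.67 FPKM in resting eosinophils (SD, n = 3 each).

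The type 2 cytokine genes Il13, Il5 and Il4 lie in 1 cluster on chromosome 11 and rose to different degrees. Il13 averaged 309 ± 20.1 CPM in T2 and 1.51 ± 0.382 CPM in resting eosinophils (SD, n = 3 each). Il5 was high in both groups, with 1537, 1631 and 1440.4 CPM in the T2 libraries, against 409, 408 and 429.6 CPM in the resting libraries (log2 fold change 1.89, SE 0.04805, edgeR adjusted p 6.27e-15). Il4 changed least of the 3, with 92.2, 83.8 and 84.4 CPM in the T2 libraries, against 32.8, 32.4 and 40.7 CPM in the resting libraries (log2 fold change 1.301, SE 0.0779). The T2 and resting libraries did not overlap for any of the 3, nor for 77.7% of all tested genes. Other cells that can express these genes are group 2 innate lymphoid cells, T cells, mast cells and basophils. The 8 markers of group 2 innate lymphoid cells summed to 41.0 to 43.6 CPM in T2 and 19.4 to 26.0 CPM at rest. Of these 6 were tested, 3 called higher and 1 lower, and none of the 8 was at 0 in all 6 libraries. The T and NK cell sum and the mast cell and basophil sum, given above, were higher in T2 libraries too. Of the mast cell and basophil markers 9 were tested, 4 called higher and 4 lower, 2 and 4 of them by at least 2-fold. Their median log2 fold change was -0.60. Of the T and NK cell markers 12 were tested, 2 called higher and 2 lower, with a median of -0.22. Over all tested genes 38.2% were called higher and 37.9% lower. The T-cell receptor gene Cd3e was at 2.15, 2.13 and 1.73 CPM in the T2 libraries, against 1.68, 1.79 and 1.97 CPM in the resting libraries, and was not called. The part of these cells in the values of Il13, Il5 and Il4 was not tested. Tnf had 156, 151 and 144 CPM in the T2 libraries, against 2.42, 1.43 and 1.33 CPM in the resting libraries (log2 fold change 6.45, SE 0.1103). Tgfb1 rose by 1.85 on the log2 scale, Osm by 2.35 and Ebi3, a subunit that IL-27 and IL-35 share, by 2.24. The gene of GM-CSF, Csf2, did not pass the filter and had 0.675, 0.486 and 0.671 CPM with T2 and 0, 0 and 0 CPM at rest; Il12a, the other IL-35 subunit, had 0.184, 0.486 and 0.2797 CPM with T2 and 0, 0 and 0.0578 CPM at rest. Il16 was the only member called lower, by 1.03.

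Among chemokine ligand genes 20 of 36 listed genes were tested, 13 called higher and 3 lower, 12 and 2 of them by at least 2-fold, with a median log2 fold change of 2.06. Of 36 listed ligands, 16 did not pass the filter on low counts, among them Ccl11 (eotaxin 1), with 0, 0 and 0.112 CPM with T2 and 0, 0.0511 and 0 CPM at rest, and Cxcl1, with 0.184, 0.486 and 0.0559 CPM with T2 and 0, 0.0511 and 0 CPM at rest. Cxcl2, a ligand of the neutrophil receptor Cxcr2, had 214, 198 and 163 CPM in the T2 libraries, against 0.225, 0.204 and 0.289 CPM in the resting libraries (log2 fold change 9.61, SE 0.174, edgeR adjusted p 1.25e-16). Cxcl3, another ligand of Cxcr2, had 206, 220.1 and 169 CPM in the T2 libraries, against 0.899, 0.715 and 1.04 CPM in the resting libraries (log2 fold change 7.81, SE 0.145). The Ccr1 ligand Ccl3 and its relative Ccl4 rose alike in fold and stood apart in level: Ccl3 had 825, 792 and 722 CPM in the T2 libraries, against 3.82, 3.52 and 2.89 CPM in the resting libraries (log2 fold change 7.83, SE 0.0852), and Ccl4 145, 150.1 and 131 CPM in the T2 libraries, against 0.842, 0.868 and 0.636 CPM in the resting libraries (log2 fold change 7.48, SE 0.112). Ccl24 (eotaxin 2), the ligand of the eosinophil receptor Ccr3, had 76.02, 58.8 and 79.5 CPM in the T2 libraries, against 0.168, 0.255 and 0.173 CPM in the resting libraries (log2 fold change 8.42, SE 0.208). Ccl17 and Ccl22, ligands of Ccr4, rose at low levels, with 9.57, 6.57 and 10.01 CPM with T2 and 0.786, 0.817 and 0.694 CPM at rest for Ccl17 and 5.22, 4.74 and 6.04 CPM with T2 and 0.337, 1.07 and 0.5205 CPM at rest for Ccl22. Cxcl12, a ligand of Cxcr4, was lower in T2, with 0.0614, 0.547 and 0.168 CPM with T2 and 1.52, 1.58 and 1.45 CPM at rest. The call of Cx3cl1 (-1.85) ended without resting library 2 (-0.59, edgeR adjusted p 0.285).

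Promoters of 5 genes that rose are shown because their letters hold matches to short consensus motifs of NF-kB, AP-1 and STAT factors. They run from 250 bases before to 50 bases after the start and come from RefSeq (GRCm38.p6). Capitals mark the matches to the motif that each promoter is shown for; a match of Il6 to the AP-1 letters is left in lower case. The NF-kB letters GGGANNTTC, searched on both strands like the others, are held by 3.87% of the 27025 promoters of the same length. The sequences are those of the 3 largest rises with a match among genes that had a promoter sequence. Ccl24, with a log2 fold change of 8.42, had none. In Cxcl2 and Cxcl3 the letters match on both strands in 1 overlapping run. They begin 97 bases before the start in Cxcl2, 73 in Cxcl3 and 44 in Il6.
Cxcl2 promoter, chr5:90903649-90903948, plus strand: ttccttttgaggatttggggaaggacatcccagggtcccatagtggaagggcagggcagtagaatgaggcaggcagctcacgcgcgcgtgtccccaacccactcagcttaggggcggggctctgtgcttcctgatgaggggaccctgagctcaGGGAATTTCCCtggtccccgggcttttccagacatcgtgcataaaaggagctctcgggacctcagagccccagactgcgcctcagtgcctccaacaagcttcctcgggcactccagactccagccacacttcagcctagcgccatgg
Cxcl3 promoter, chr5:90785851-90786150, plus strand: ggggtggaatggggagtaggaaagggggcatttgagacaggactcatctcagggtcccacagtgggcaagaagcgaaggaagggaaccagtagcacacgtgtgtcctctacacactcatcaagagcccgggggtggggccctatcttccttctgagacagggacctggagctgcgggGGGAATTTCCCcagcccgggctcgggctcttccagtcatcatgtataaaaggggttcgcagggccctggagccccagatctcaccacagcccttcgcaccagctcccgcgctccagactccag
Il6 promoter, chr5:30012864-30013163, plus strand: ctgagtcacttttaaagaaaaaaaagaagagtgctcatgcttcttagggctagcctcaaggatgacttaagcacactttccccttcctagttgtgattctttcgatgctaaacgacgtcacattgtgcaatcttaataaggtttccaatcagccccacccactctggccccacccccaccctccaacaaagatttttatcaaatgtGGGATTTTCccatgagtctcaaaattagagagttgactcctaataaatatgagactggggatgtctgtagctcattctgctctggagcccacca

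The AP-1 letters TGANTCA are held by 7.93% of promoters. Among genes that had a promoter sequence, Il1a is the largest rise with a match not shown above. Its match begins 12 bases before the start. The STAT letters TTCNNNGAA are held by 8.47%. Cish, a STAT5 feedback gene, has 2 matches at its start and was chosen after the counts had been seen.
Il1a promoter, chr2:129309923-129310222, minus strand: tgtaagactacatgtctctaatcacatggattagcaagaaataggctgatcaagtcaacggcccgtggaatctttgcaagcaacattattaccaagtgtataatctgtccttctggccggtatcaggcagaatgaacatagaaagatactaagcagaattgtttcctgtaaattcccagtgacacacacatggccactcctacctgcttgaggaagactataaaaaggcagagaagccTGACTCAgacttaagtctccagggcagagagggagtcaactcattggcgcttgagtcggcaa
Cish promoter, chr9:107296409-107296708, plus strand: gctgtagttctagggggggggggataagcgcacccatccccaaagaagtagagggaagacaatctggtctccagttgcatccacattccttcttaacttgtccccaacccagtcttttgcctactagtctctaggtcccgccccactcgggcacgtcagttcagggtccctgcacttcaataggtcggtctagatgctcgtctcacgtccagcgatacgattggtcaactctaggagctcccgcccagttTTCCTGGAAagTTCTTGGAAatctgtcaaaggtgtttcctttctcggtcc

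A match is a description of letters and not a binding site. The promoters shown were picked for their matches. The NF-kB letters were absent from the promoters of Ptgs2, Il1b, Il1a, Ccl3, Il13, Car4 and Tnfaip3, and Nfkbia had them. Of other feedback genes, Socs3 held the STAT letters, and Socs1, Pim1 and Pim2 did not. A comparison of motif shares between genes that rose and fell is void here: 77.9% of the genes at least 2-fold higher and 77.8% of those at least 2-fold lower had a promoter sequence, both under the minimum of 80% set for such a comparison.

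Receptors for chemoattractants went both ways: 37 of 46 listed genes were tested, 17 called higher and 16 lower, 15 and 11 of them by at least 2-fold, with a median log2 fold change of 0.10. That median turned to -0.01 with upper-quartile scaling. The shares called, 45.9% higher and 43.2% lower, lie within 10 percentage points of the 38.2% and 37.9% of all tested genes. Cxcr2, the receptor of Cxcl2 and Cxcl3, had 169.5, 171 and 165 CPM in the T2 libraries, against 7.64, 8.22 and 7.34 CPM in the resting libraries (log2 fold change 4.44, SE 0.0658, edgeR adjusted p 1.47e-17). The adenosine receptor genes Adora2a and Adora2b rose by 4.21 and 3.99 on the log2 scale, and Ccr1 by 1.60. Ccr3, the eotaxin receptor that defines eosinophils, had 1649, 1602 and 1510.3 CPM in the T2 libraries, against 2726, 2548 and 2735 CPM in the resting libraries (log2 fold change -0.75, SE 0.0432). Cxcr4, which holds leukocytes in bone marrow, fell to 102, 103 and 97.4 CPM in T2 libraries, against 354, 321 and 331 CPM in resting libraries. S1pr4, P2ry10 and C5ar2 also fell, by 1.32, 1.49 and 1.42. Cx3cr1 fell by 3.26 and was not among the list's 5 largest falls at 10 CPM or more.

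**Figure D3:**
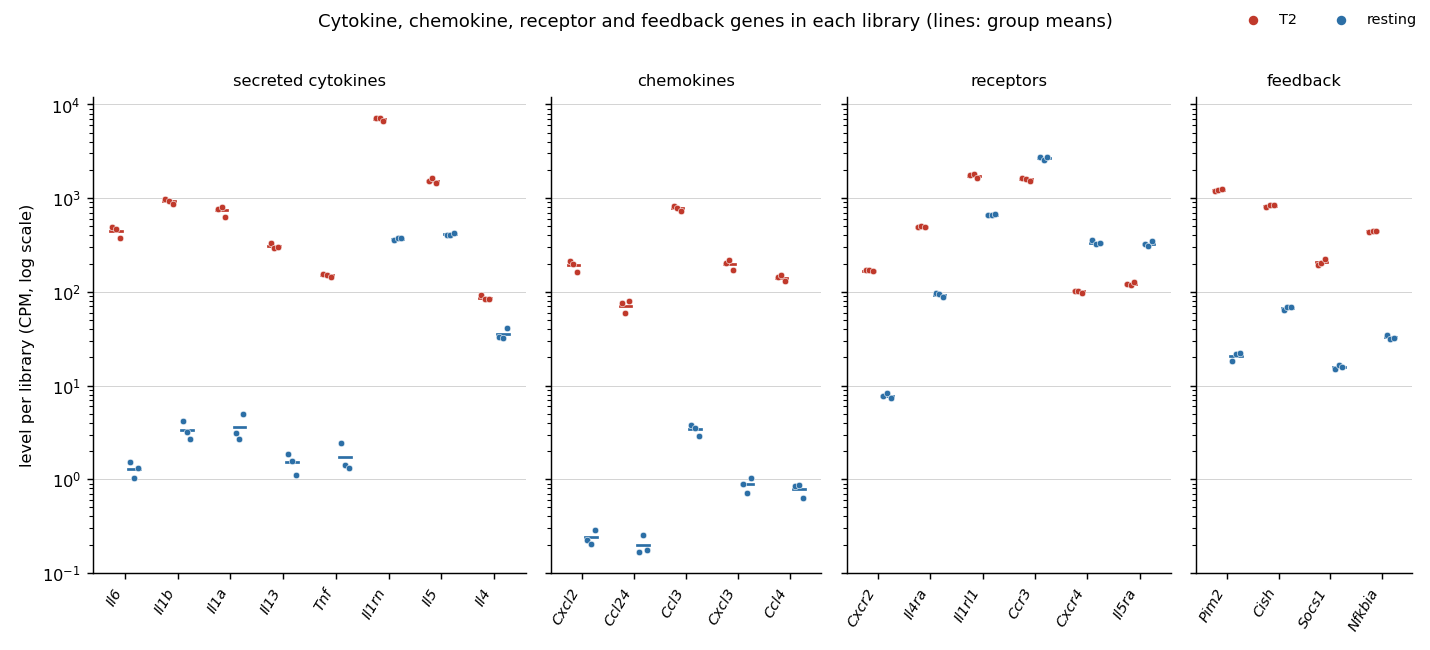
Points show CPM (log axis) in each T2 library (red, left) and each resting library (blue, right), and short lines the group means, for cytokine, chemokine, receptor and feedback genes. The groups do not overlap for any gene drawn, nor for 77.7% of all tested genes. Ccr3, Cxcr4 and Il5ra are lower with T2 and the other genes drawn higher.

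Among cytokine receptor chains 37 of 40 listed genes were tested, 24 called higher and 6 lower, 14 and 2 of them by at least 2-fold, with a median log2 fold change of 0.61. The chains of the IL-4 receptor rose: Il4ra had 494, 502 and 497 CPM in the T2 libraries, against 97.7, 95.4 and 87.9 CPM in the resting libraries (log2 fold change 2.41, SE 0.0481, edgeR adjusted p 3.37e-16), and Il2rg, the common gamma chain, rose by 2.44. Il10ra rose by 2.79. Il5ra, the IL-5 receptor alpha chain, fell, with 122, 119 and 127 CPM in the T2 libraries, against 324, 307 and 347 CPM in the resting libraries (log2 fold change -1.41, SE 0.0517, edgeR adjusted p 5.86e-13). Csf2ra, the GM-CSF receptor alpha chain, rose by 0.68. The shared beta chain Csf2rb moved by 0.16, a call that ended with upper-quartile scaling (0.04, edgeR adjusted p 0.35), and its near-identical copy Csf2rb2 makes the count uncertain. Il17ra fell by 1.54 and Il6ra by 0.81.

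The receptors of the interleukins that the labels name for single replicates were higher in T2. Il1rl1 (ST2, the IL-33 receptor) had 1749, 1807 and 1631 CPM in the T2 libraries, against 657, 663 and 685 CPM in the resting libraries (log2 fold change 1.37, SE 0.0438). Csf1r, the receptor of IL-34 and CSF1, had 865, 859.5 and 900.3 CPM in the T2 libraries, against 589.8, 574 and 558 CPM in the resting libraries (log2 fold change 0.61, SE 0.040). Il12rb2 and Il6st, which have been described as IL-35 receptor chains, rose by 2.12 and 0.59. None of the 4 genes had a T2 library apart from the other 2 by 1.5-fold, and each replicate, with its own interleukin named, had a library of its own.

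The T2 libraries resembled each other closely. Their labels differ, but whether the interleukins used differed as the labels do is not known. Among 7539 genes at 10 CPM or more on average in T2 libraries, 1 had a library at least 2-fold from both others: Gm45837, a predicted gene, with 21.2, 14.2 and 6.66 CPM in T2 and 72.5, 42.03 and 63.7 CPM in resting libraries. At 1.5-fold there were 8 such genes, of which replicate 1 (IL33) gave 2, replicate 2 (IL34) 1 and replicate 3 (IL35) 5. The median coefficient of variation was 5.03% among T2 and 4.23% among resting libraries. The chi-square per gene, a measure of spread relative to sampling noise, was 2.55 between T2 replicates 1 and 2. It was 6.04 and 6.46 between these and replicate 3, and 3.56, 3.71 and 4.51 between pairs of resting libraries. With 1 library for each label, no effect of a single interleukin can be tested.

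Feedback genes of JAK-STAT signalling were among the larger rises of the signalling lists. Of the JAK-STAT members and feedback genes 30 of 30 listed genes were tested, 19 called higher and 9 lower, 11 and 1 of them by at least 2-fold, with a median log2 fold change of 0.25. Pim2, a survival kinase, had 1203, 1211 and 1258 CPM in the T2 libraries, against 18.2, 21.7 and 22.5 CPM in the resting libraries (log2 fold change 5.88, SE 0.0653, edgeR adjusted p 6.80e-19). Cish and Socs1, inhibitors of cytokine signalling, had 832 ± 20.6 against 67.1 ± 3.13 CPM and 208 ± 15.01 against 15.9 ± 0.823 CPM (T2 against resting, SD, n = 3 each). Socs3 rose by 3.06, Pim1 by 1.89 and Socs2 by 1.47. Some of the factors and kinases upstream fell: Stat6 by 0.80, Jak1 by 0.63 and Stat5b by 0.55. Bcl6, a repressor of STAT6 targets, fell by 1.93, with 4.48, 3.59 and 4.14 CPM with T2 and 13.9, 15.8 and 17 CPM at rest.

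Genes listed as IL-4 and STAT6 targets of alternatively activated macrophages had the highest median of the 40 lists, 2.73: of 29 tested members among 35 listed, 27 were called higher and 1 lower, 25 and 1 of them by at least 2-fold. Arg1, which splits arginine to ornithine, had 35.9, 32.7 and 35.4 CPM in the T2 libraries, against 0.337, 0.153 and 0.0578 CPM in the resting libraries (log2 fold change 7.51, SE 0.1904, edgeR adjusted p 5.87e-15). Retnla, a resistin-like effector, had 1063, 1074 and 1094 CPM in the T2 libraries, against 162, 159 and 167 CPM in the resting libraries (log2 fold change 2.73, SE 0.0419), and Chil3, a chitinase-like protein, rose by 1.69. Tgm2, a transglutaminase, had 1021, 1189.8 and 949 CPM in the T2 libraries, against 41.7, 38.5 and 41.2 CPM in the resting libraries (log2 fold change 4.70, SE 0.0786), and Egr2 rose by 4.60. F13a1, a clotting factor gene of macrophages, was the member called lower, with 1.78, 1.46 and 1.902 CPM with T2 and 10.8, 8.12 and 9.02 CPM at rest. Ccl24, Socs1 and Cish stand on this list too.

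Most of the tested NF-kB genes and inhibitors were higher. On that list 44 of 44 listed genes were tested, 37 called higher and 3 lower, 23 and 1 of them by at least 2-fold, with a median log2 fold change of 1.06. The inhibitors Nfkbia and Tnfaip3 had 442 ± 4.53 against 32.8 ± 1.75 CPM and 905 ± 35.7 against 149 ± 6.27 CPM in T2 against resting libraries (SD, n = 3 each). Nfkbiz, an atypical inhibitor needed for some secondary targets, rose by 5.27, the adaptor Traf1 by 5.46, and Zc3h12a, an RNase that degrades cytokine messages, by 3.91. The subunit genes Nfkb1 and Relb rose by 1.93 and 2.64. Traf5, Irak4 and Birc2 were the 3 members called lower.

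Immediate early genes were mostly higher: 35 of 39 listed genes were tested, 24 called higher and 5 lower. By at least 2-fold 18 were higher and 1 lower, and the median log2 fold change was 1.11. Egr1 had 109, 114 and 104 CPM in the T2 libraries, against 6.01, 4.801 and 3.87 CPM in the resting libraries (log2 fold change 4.47, SE 0.0972), and Nr4a1 62.8, 67.6 and 67.01 CPM in the T2 libraries, against 2.08, 2.298 and 1.73 CPM in the resting libraries (log2 fold change 5.00, SE 0.0961). The MAP kinase phosphatases Dusp16 and Dusp6 and the Ras-pathway inhibitor Spred1 rose by 4.37, 3.45 and 4.35. Jun rose by 1.43, to 12.03, 11.4 and 10.1 CPM in T2 libraries, against 3.76, 4.49 and 4.16 CPM in resting libraries. Fos went the other way, with 8.77, 7.84 and 7.83 CPM in the T2 libraries, against 18.5, 15.99 and 17.4 CPM in the resting libraries (log2 fold change -1.08, SE 0.1001, edgeR adjusted p 6.51e-08), and Dusp1 and Klf6 fell by 0.63 and 0.51.

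The survival genes Bcl2l1 and Bcl2 rose, and the death genes Bbc3 and Bmf fell. Of the BCL2 family and apoptosis regulators 32 of 36 listed genes were tested, 19 called higher and 11 lower, 12 and 6 of them by at least 2-fold, with a median log2 fold change of 0.62. Bcl2l1 (BCL-XL), an anti-death gene, had 291, 303 and 304 CPM in the T2 libraries, against 26.7, 27.5 and 27.01 CPM in the resting libraries (log2 fold change 3.47, SE 0.0513, edgeR adjusted p 1.47e-17). Bcl2, of the same kind, had 69.03, 60.9 and 68.1 CPM in the T2 libraries, against 4.61, 5.01 and 5.15 CPM in the resting libraries (log2 fold change 3.74, SE 0.0851). For both genes the groups lay far apart. The copies Bcl2a1a, Bcl2a1b and Bcl2a1d rose by 2.61, 3.79 and 4.56; they are near-identical, so the split between them is uncertain. The BH3-only genes Bbc3 (PUMA) and Bmf, which start cell death, fell by 2.56 and 2.13. Mcl1, another anti-death gene, moved by -0.10, and the call ended in 4 of 12 alternatives. Fas, a death receptor, went up by 1.90.

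Genes of eosinophil granules and surface went both ways: 35 of 39 listed genes were tested, 20 called higher and 10 lower, 11 and 3 of them by at least 2-fold, with a median log2 fold change of 0.63. The surface genes Siglece, Cd9, Cd53 and Cd69 rose by 4.31, 2.95, 3.72 and 5.31. Cd69, an activation marker, had 46.1, 46.5 and 41.1 CPM in the T2 libraries, against 0.899, 1.23 and 1.21 CPM in the resting libraries. Siglecf had 1354, 1375 and 1282 CPM in the T2 libraries, against 1113, 1070.3 and 1126 CPM in the resting libraries (log2 fold change 0.28, SE 0.0404), a small shift beside those. Of the granule proteins, Prg2 (major basic protein) averaged 476 ± 16.5 CPM in T2 and 605 ± 9.07 CPM in resting eosinophils (SD, n = 3 each) and Epx (eosinophil peroxidase) 78.4 ± 2.72 CPM in T2 and 128 ± 12.3 CPM in resting eosinophils (SD, n = 3 each), both lower in T2. Ear6, an eosinophil ribonuclease gene of a family of close copies, rose by 1.73. Cd101 was not called, at 50.8, 49.9 and 52.1 CPM with T2 and 50.4, 51.3 and 54.1 CPM at rest.

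Among lineage transcription factors 45 of 45 listed genes were tested, 28 called higher and 11 lower, 15 and 4 of them by at least 2-fold, with a median log2 fold change of 0.63. Gata1, needed for eosinophil development in mice, had 251, 254 and 255 CPM in the T2 libraries, against 129, 128 and 131 CPM in the resting libraries (log2 fold change 0.97, SE 0.0424). Xbp1, needed for it too, had 1241, 1291 and 1266 CPM in the T2 libraries, against 205, 201 and 222 CPM in the resting libraries (log2 fold change 2.60, SE 0.0462). Cebpe, which drives granule gene expression, fell by 0.93. Ikzf2 (Helios), a zinc finger factor, had 49.9, 47.9 and 48.05 CPM in the T2 libraries, against 228, 235 and 242 CPM in the resting libraries (log2 fold change -2.27, SE 0.0501). Id1 and Irf4 rose by 2.23 and 1.68, and Nr3c1, the glucocorticoid receptor, fell by 0.77.

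Among the enzymes of lipid mediators 19 of 28 listed genes were tested, 10 called higher and 8 lower, 7 and 2 of them by at least 2-fold, with a median log2 fold change of 0.49. Ptgs2 (cyclooxygenase 2) had 182, 178 and 131 CPM in the T2 libraries, against 0.505, 0.511 and 0.231 CPM in the resting libraries (log2 fold change 8.58, SE 0.201, edgeR adjusted p 2.39e-15), and Ptgs1 rose by 1.55. Pla2g4a, which frees arachidonic acid, rose by 1.84, and Abcc1, an exporter of leukotriene C4, by 3.06. Alox15, abundant in eosinophils, had 484, 465 and 524 CPM in the T2 libraries, against 1872, 1816 and 1799 CPM in the resting libraries (log2 fold change -1.90, SE 0.0464, edgeR adjusted p 3.85e-15). Alox5 rose by 0.49, while its partner Alox5ap and the LTB4 enzyme Lta4h fell by 0.85 and 0.85. Ltc4s did not pass the filter, with 0.491, 0.7297 and 0.336 CPM with T2 and 0.449, 0.409 and 0.752 CPM at rest.

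Adhesion genes held more falls than rises: 32 of 34 listed genes were tested, 12 called higher and 16 lower, 5 and 13 of them by at least 2-fold, with a median log2 fold change of -0.30. Itgb7 and Itga4 pair as a gut-homing integrin. Itgb7 had 131, 131 and 147 CPM in the T2 libraries, against 853, 851 and 773 CPM in the resting libraries (log2 fold change -2.60, SE 0.0564, edgeR adjusted p 9.75e-16), and Itga4 605, 634 and 483 CPM in the T2 libraries, against 1475, 1411 and 1545 CPM in the resting libraries (log2 fold change -1.36, SE 0.0745). Itga2, a collagen-binding integrin chain, fell by 2.08. Itgam and Itgb2, which pair as Mac-1, rose by 0.94 and 0.83. Itga5 and Icam1 rose by 2.75 and 1.99.

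Of the genes for matrix proteases, inhibitors and tissue remodelling 33 of 41 listed genes were tested, 21 called higher and 7 lower, 15 and 4 of them by at least 2-fold, with a median log2 fold change of 0.67. The growth factor genes Inhba (activin A) and Hbegf had 11.97, 11.6 and 11.2 CPM with T2 and 0.112, 0.153 and 0 CPM at rest for Inhba and 46.5, 48.8 and 42.96 CPM with T2 and 1.797, 1.99 and 2.198 CPM at rest for Hbegf. Vegfa rose by 2.46. The proteases Mmp12, Mmp13 and Mmp14 rose but averaged under 11 CPM, whereas Mmp9 fell, with 329.6, 350.2 and 317 CPM in the T2 libraries, against 546, 517 and 504 CPM in the resting libraries (log2 fold change -0.65, SE 0.0471). Tgfbi and Timp2 fell by 1.70 and 2.03.

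Most of the tested genes for ligands and receptors that act between T cells and other cells were higher. Of the co-stimulation and checkpoint list 23 of 28 listed genes were tested, 14 called higher and 3 lower, 8 and 1 of them by at least 2-fold, with a median log2 fold change of 0.67. Cd274 (PD-L1) had 273, 274 and 248 CPM in the T2 libraries, against 36.6, 37.3 and 37.99 CPM in the resting libraries (log2 fold change 2.83, SE 0.0559), and Cd80 315, 332 and 289 CPM in the T2 libraries, against 58.9, 57.6 and 58.8 CPM in the resting libraries (log2 fold change 2.42, SE 0.0563). The ligand gene Pdcd1lg2 (PD-L2) and the receptor gene Tnfrsf9 (4-1BB) rose by 3.47 and 5.80, while Cd86 fell by 0.75. On the MHC class II list 15 of 15 listed genes were tested, 3 called higher and 6 lower, 0 and 2 of them by at least 2-fold, with a median log2 fold change of -0.05, which turned to 0.01 without T2 replicate 2; March1, which removes class II molecules and Cd86 from the surface, fell by 1.34.

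Receptors for microbes went both ways: 39 of 42 listed genes were tested, 22 called higher and 13 lower, 17 and 5 of them by at least 2-fold, with a median log2 fold change of 0.44. The C-type lectin receptor genes Clec4n (Dectin-2), Clec4e (Mincle) and Clec4d lie together on chromosome 6. Clec4n had 350.2, 303 and 325 CPM in the T2 libraries, against 1.52, 1.94 and 1.62 CPM in the resting libraries (log2 fold change 7.58, SE 0.0954, edgeR adjusted p 2.64e-18), Clec4e 843, 822 and 755 CPM in the T2 libraries, against 9.21, 9.397 and 11.1 CPM in the resting libraries (log2 fold change 6.35, SE 0.0722), and Clec4d 106, 98.99 and 107 CPM in the T2 libraries, against 3.99, 3.06 and 3.59 CPM in the resting libraries (log2 fold change 4.88, SE 0.08597). Cd14 rose by 5.04, Tlr9 by 4.82 and Tlr2 by 2.87. The RNA sensor genes Tlr7 and Tlr8 fell by 1.55 and 2.88, both at under 4 CPM in every library, and Tmem173 (STING) by 1.62.

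Of the paired and inhibitory immunoglobulin-like receptors 25 of 33 listed genes were tested, 19 called higher and 2 lower, 15 and 0 of them by at least 2-fold, with a median log2 fold change of 1.39. Pilra, an inhibitory receptor, had 593, 587 and 571 CPM in the T2 libraries, against 4.83, 5.01 and 5.03 CPM in the resting libraries (log2 fold change 6.88, SE 0.0618, edgeR adjusted p 1.23e-19). Its activating partner Pilrb1 rose by 3.31, the collagen receptor Lair1 by 3.64, and Trem1, which amplifies inflammatory signals, by 5.38. Lilrb4a and Lilr4b are close copies and rose by 2.75 and 2.19.

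The phagocyte NADPH oxidase makes superoxide. Of its 14 listed genes 9 were tested, 4 called higher and 3 lower, 0 and 2 of them by at least 2-fold. The median log2 fold change was 0.09, which turned to -0.03 with upper-quartile scaling. The shares called, 44.4% higher and 33.3% lower, lie within 10 percentage points of the 38.2% and 37.9% of all tested genes. The membrane subunit Cybb fell, with 588, 626 and 539.7 CPM in the T2 libraries, against 1342, 1272 and 1418 CPM in the resting libraries (log2 fold change -1.20, SE 0.0541). The other membrane subunit Cyba and the cytosolic subunits Ncf1 and Ncf4 rose by 0.63, 0.94 and 0.62.

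Antioxidant and NRF2 target genes mostly rose: 42 of 45 listed genes were tested, 29 called higher and 12 lower, 14 and 5 of them by at least 2-fold, with a median log2 fold change of 0.50. Slc7a11, the cystine importer that feeds glutathione synthesis, had 1637, 1631 and 1288 CPM in the T2 libraries, against 54.4, 48.7 and 51.01 CPM in the resting libraries (log2 fold change 4.89, SE 0.0876, edgeR adjusted p 1.18e-16). Srxn1 and Txnrd1, which regenerate peroxiredoxin and thioredoxin, rose by 3.02 and 2.92, and the glutathione synthesis genes Gclc and Gclm by 2.03 and 1.81. Gpx4, which reduces lipid peroxides, fell by 0.91. Gsto1, a glutathione transferase, had 11.4, 13.4 and 12.5 CPM in the T2 libraries, against 86.9, 84.3 and 83.6 CPM in the resting libraries (log2 fold change -2.77, SE 0.0683).

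Of iron genes 23 of 28 listed genes were tested, 13 called higher and 7 lower, 7 and 3 of them by at least 2-fold, with a median log2 fold change of 0.41. In the authors' FPKM, which allows for length, Fth1 (ferritin heavy chain) ranked 1st of all genes in T2 libraries and 35th at rest, with 11336 ± 338 FPKM in T2 and 1005 ± 60.2 FPKM in resting eosinophils (SD, n = 3 each). Slc11a1, which moves iron out of phagosomes, had 1064, 1091 and 1074 CPM in the T2 libraries, against 31.7, 31.6 and 31.6 CPM in the resting libraries (log2 fold change 5.09, SE 0.0472, edgeR adjusted p 1.32e-19). The uptake genes Tfrc, Slc39a14 and Slc39a8 rose by 2.19, 2.24 and 1.44. Slc40a1, the iron exporter, fell by 1.06. The mitochondrial iron carriers Slc25a37 and Slc25a28 fell by 0.77 and 0.82.

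Of heme genes 20 of 22 listed genes were tested, 7 called higher and 9 lower, 5 and 4 of them by at least 2-fold, with a median log2 fold change of -0.10. The shares called higher and lower lie within 10 percentage points of the 38.2% and 37.9% of all tested genes. Alas1, the first step of heme synthesis, had 1114, 1115 and 1116 CPM in the T2 libraries, against 78.1, 77.7 and 78.5 CPM in the resting libraries (log2 fold change 3.84, SE 0.0425), and Hmox1, which breaks heme down, 257, 269 and 223 CPM in the T2 libraries, against 7.98, 8.17 and 8.39 CPM in the resting libraries (log2 fold change 4.93, SE 0.0836). Urod and Fech, later steps of synthesis, fell by 1.86 and 1.52, and Ppox by 0.47. Cpox, not among the list's 5 largest falls at 10 CPM or more, fell by 0.56. Alad, the second step, rose by 1.20 at under 3 CPM.

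**Figure D4:**
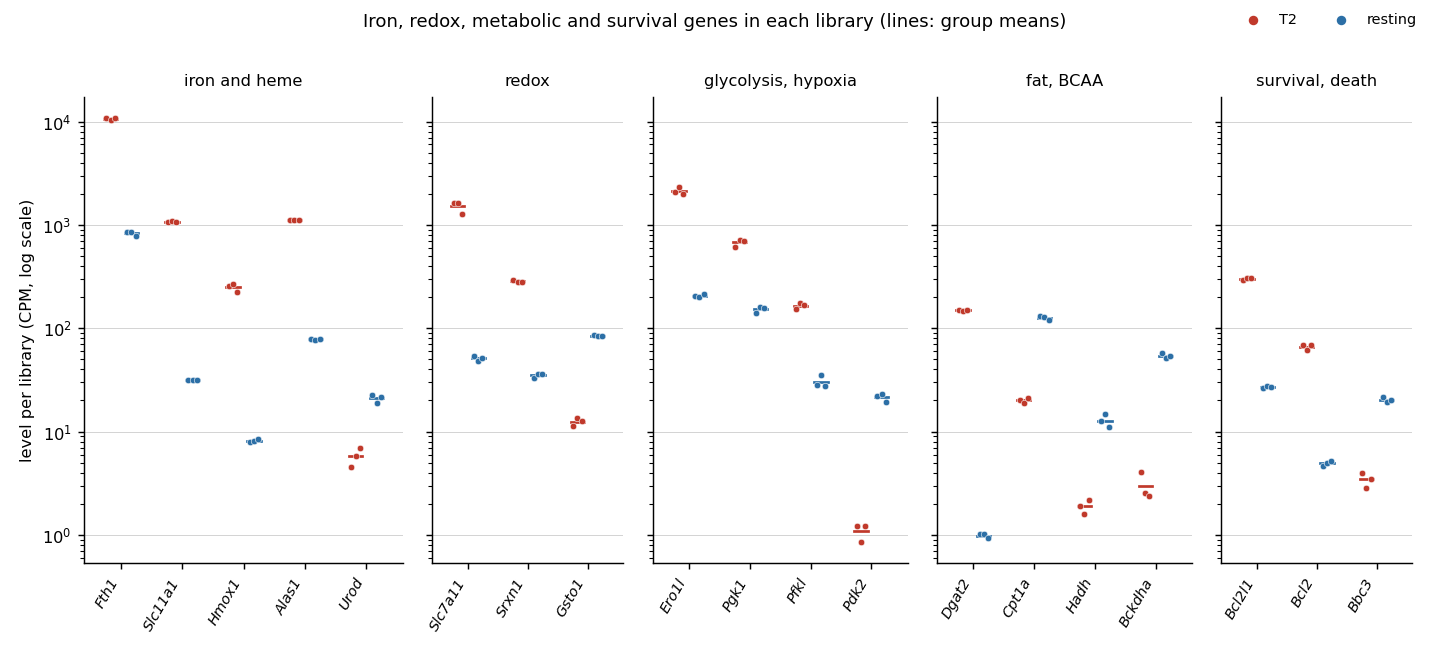
Points show CPM (log axis) in each T2 library (red, left) and each resting library (blue, right), and short lines the group means, for iron, redox, metabolic and survival genes. The groups do not overlap for any gene drawn, nor for 77.7% of all tested genes. Urod, Gsto1, Pdk2, Cpt1a, Hadh, Bckdha and Bbc3 are lower with T2 and the other genes drawn higher.

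Glycolysis genes rose as a majority of their list: 34 of 36 listed genes were tested, 23 called higher and 7 lower, 13 and 3 of them by at least 2-fold, with a median log2 fold change of 0.57. Pfkl, a phosphofructokinase, had 154, 174 and 167 CPM in the T2 libraries, against 28.2, 35.4 and 27.5 CPM in the resting libraries (log2 fold change 2.44, SE 0.0816). Tpi1, Pgk1, Eno1 and Gapdh rose by 2.29, 2.15, 1.90 and 1.40, Ldha by 1.12 and the glucose transporter Slc2a1 by 1.27. Gpi1, the second step, fell by 0.57. The pyruvate dehydrogenase kinases parted: Pdk1 rose by 1.66, while Pdk2 fell to 1.23, 0.851 and 1.23 CPM in T2 libraries, against 22.1, 23.03 and 19.1 CPM in resting libraries.

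On the hypoxia list 27 of 30 listed genes were tested, 18 called higher and 6 lower, 11 and 5 of them by at least 2-fold, with a median log2 fold change of 0.27. Hif1a had 2219.6, 2196 and 1906 CPM in the T2 libraries, against 742, 694 and 731 CPM in the resting libraries (log2 fold change 1.54, SE 0.054). Ero1l, an oxidase of the endoplasmic reticulum, had 2081, 2347 and 1971 CPM in the T2 libraries, against 205, 202 and 214 CPM in the resting libraries (log2 fold change 3.37, SE 0.0597), and Egln3 and P4ha1, prolyl hydroxylases, rose by 3.11 and 2.91. Ddit4, Bnip3l and Ndrg1, which hypoxia also raises in other cells, fell by 1.44, 1.41 and 2.12.

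Fatty acid oxidation genes held more falls than rises: 27 of 29 listed genes were tested, 7 called higher and 15 lower, 0 and 9 of them by at least 2-fold, with a median log2 fold change of -0.48. Cpt1a, which admits long-chain fatty acids to mitochondria, had 20.3, 18.8 and 21.1 CPM in the T2 libraries, against 131, 129 and 121 CPM in the resting libraries (log2 fold change -2.66, SE 0.06303, edgeR adjusted p 2.67e-15). Hadh and the peroxisomal genes Acox3 and Hsd17b4 fell by 2.75, 1.88 and 1.65. The mitochondrial genes Etfb, Acadl and Etfa rose by 0.99, 0.54 and 0.50.

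Breakdown of branched-chain amino acids had the lowest median of the 40 lists, -0.63. Of 21 tested genes among 22 listed, 3 were called higher and 16 lower, 0 and 9 of them by at least 2-fold. Bckdha, a subunit of the committed dehydrogenase, had 4.05, 2.55 and 2.41 CPM in the T2 libraries, against 57.8, 51.1 and 53.4 CPM in the resting libraries (log2 fold change -4.18, SE 0.122, edgeR adjusted p 3.54e-14). Its partner Bckdhb, not among the list's 5 largest falls at 10 CPM or more, fell by 1.53. Dbt, the core of the same complex, rose by 0.71. Aldh6a1 and Mcee, in the valine and propionate branch, fell by 1.86 and 2.13.

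Lipid storage genes moved unevenly: 26 of 27 listed genes were tested, 14 called higher and 8 lower, 9 and 3 of them by at least 2-fold, with a median log2 fold change of 0.29. Dgat2, which completes triglyceride synthesis, had 151, 147 and 151 CPM in the T2 libraries, against 1.01, 1.02 and 0.925 CPM in the resting libraries (log2 fold change 7.23, SE 0.089, edgeR adjusted p 2.17e-18). Lpl and Lipa, lipases of the cell surface and lysosome, rose by 3.54 and 2.97, and Pnpla2, the lipase of the droplet, fell by 1.48. In cholesterol synthesis 24 of 25 listed genes were tested, 19 called higher and 4 lower, 8 and 1 of them by at least 2-fold, with a median log2 fold change of 0.70. Idi1 and Sqle, enzymes of the pathway, rose by 1.94 and 1.61.

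Of complex I subunits 36 of 36 listed genes were tested, 13 called higher and 5 lower, 0 and 0 of them by at least 2-fold, with a median log2 fold change of 0.08, a median that turned to -0.04 with upper-quartile scaling and to -0.03 without T2 replicate 3. For complexes III, IV and ATP synthase 36 of 36 listed genes were tested, 23 called higher and 4 lower, 2 and 1 of them by at least 2-fold, with a median log2 fold change of 0.35. Cycs (cytochrome c) rose by 1.86, and Cox7a2l, a factor of supercomplex assembly, had 36.9, 36.97 and 38.2 CPM in the T2 libraries, against 136, 135 and 142 CPM in the resting libraries (log2 fold change -1.88, SE 0.0529). Of the mitochondrially encoded genes 13 of 13 listed genes were tested, 2 called higher and 2 lower, 0 and 0 of them by at least 2-fold, with a median log2 fold change of -0.07. In the tricarboxylic acid cycle list 26 of 26 listed genes were tested, 13 called higher and 6 lower, 2 and 2 of them by at least 2-fold, with a median log2 fold change of 0.16. Acod1, which diverts cis-aconitate to itaconate, had 166, 178 and 147 CPM in the T2 libraries, against 4.21, 2.55 and 4.34 CPM in the resting libraries (log2 fold change 5.48, SE 0.1201, edgeR adjusted p 1.04e-15), Idh3a rose by 2.23, and Idh2 fell by 1.72.

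Genes of amino acid transport, arginine and polyamines gave 27 tested members of 29, 16 called higher and 5 lower. Slc7a5 and Slc3a2, the chains of a leucine transporter, rose by 2.41 and 1.87, and Srm (spermidine synthase) by 2.06. Oaz2, an antizyme that lowers polyamine synthesis, had 32.3, 34.2 and 39.9 CPM in the T2 libraries, against 165, 159.7 and 160.1 CPM in the resting libraries (log2 fold change -2.18, SE 0.06703), while Azin1, the antizyme inhibitor, rose by 1.51.

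Most of the tested ribosome biogenesis genes were higher: 35 of 36 listed genes were tested, 30 called higher and 4 lower, 22 and 3 of them by at least 2-fold, with a median log2 fold change of 1.24. Bysl and Rrp12, processing factors of the small subunit, had 35.6, 35.1 and 33.5 CPM with T2 and 3.48, 4.55 and 3.701 CPM at rest for Bysl and 36.1, 38.6 and 36.7 CPM with T2 and 5.78, 4.903 and 3.76 CPM at rest for Rrp12. Ddx21 rose by 2.15, and Myc itself by 1.47, with 4.602, 6.57 and 5.76 CPM with T2 and 2.25, 2.45 and 1.39 CPM at rest. Mxd1 and Mxi1, which oppose Myc, fell by 1.20 and 1.34.

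Most of the tested protein folding and degradation genes were higher. Of heat shock and chaperone genes 22 of 23 listed genes were tested, 20 called higher and 0 lower, 11 and 0 of them by at least 2-fold, with a median log2 fold change of 1.03. Hsp90aa1 and Hsp90ab1 rose by 1.78 and 1.64, and the chaperonin subunit Cct3 by 1.69; Hspa1a and Hspa1b are near-identical copies. Of proteasome genes 36 of 36 listed genes were tested, 32 called higher and 2 lower, 7 and 1 of them by at least 2-fold, with a median log2 fold change of 0.78. Psmb5, a catalytic subunit, had 72.9, 70.5 and 78.5 CPM in the T2 libraries, against 25.2, 25.3 and 25.9 CPM in the resting libraries (log2 fold change 1.54, SE 0.0614). Psmb8 and Psmb9, subunits of the immunoproteasome, were the 2 members called lower, by 0.31 and 1.15.

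On the integrated stress and unfolded protein list 35 of 36 listed genes were tested, 27 called higher and 4 lower, 10 and 1 of them by at least 2-fold, with a median log2 fold change of 0.43. Hspa5 (BiP) and Atf4 rose by 1.71 and 1.32. Ddit3 (CHOP) was not called, at 16.9, 17.3 and 19.5 CPM with T2 and 17.5, 16.2 and 14.9 CPM at rest (log2 fold change 0.15, SE 0.0907, edgeR adjusted p 0.153), and Eif2ak3 (PERK) fell by 0.82. Among lysosomal genes 39 of 40 listed genes were tested, 18 called higher and 13 lower, 6 and 4 of them by at least 2-fold. The median log2 fold change was 0.07, which turned to -0.04 with upper-quartile scaling. The shares called, 46.2% higher and 33.3% lower, lie within 10 percentage points of the 38.2% and 37.9% of all tested genes. Ctsc and Ctsz rose by 2.54 and 2.08, whereas Ctsa had 48.2, 49.4 and 53.9 CPM in the T2 libraries, against 313, 288 and 294 CPM in the resting libraries (log2 fold change -2.56, SE 0.05605).

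Interferon response genes held more falls than rises: 33 of 36 listed genes were tested, 8 called higher and 17 lower, 2 and 8 of them by at least 2-fold, with a median log2 fold change of -0.29. Ifit3 and Oasl1 fell by 2.42 and 2.36 at under 3 CPM in every library. Zbp1, a sensor of nucleic acids, rose, with 49.8, 51.1 and 49.9 CPM in the T2 libraries, against 10.6, 11.7 and 10.9 CPM in the resting libraries (log2 fold change 2.18, SE 0.0695). Among cell cycle genes 36 of 36 listed genes were tested, 8 called higher and 12 lower, 5 and 7 of them by at least 2-fold, with a median log2 fold change of -0.19. The early G1 genes Cdk6, Ccnd2 and Ccnd3 rose, Cdk6 to 1109, 1219 and 1089 CPM in T2 libraries, against 130.4, 125 and 127 CPM in resting libraries. Cdkn1a rose by 2.53 and Cdkn1b, another inhibitor of the cycle, fell by 1.73. Mcm7 and E2f1, of DNA replication, fell by 1.46 and 1.33.

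**Figure D5:**
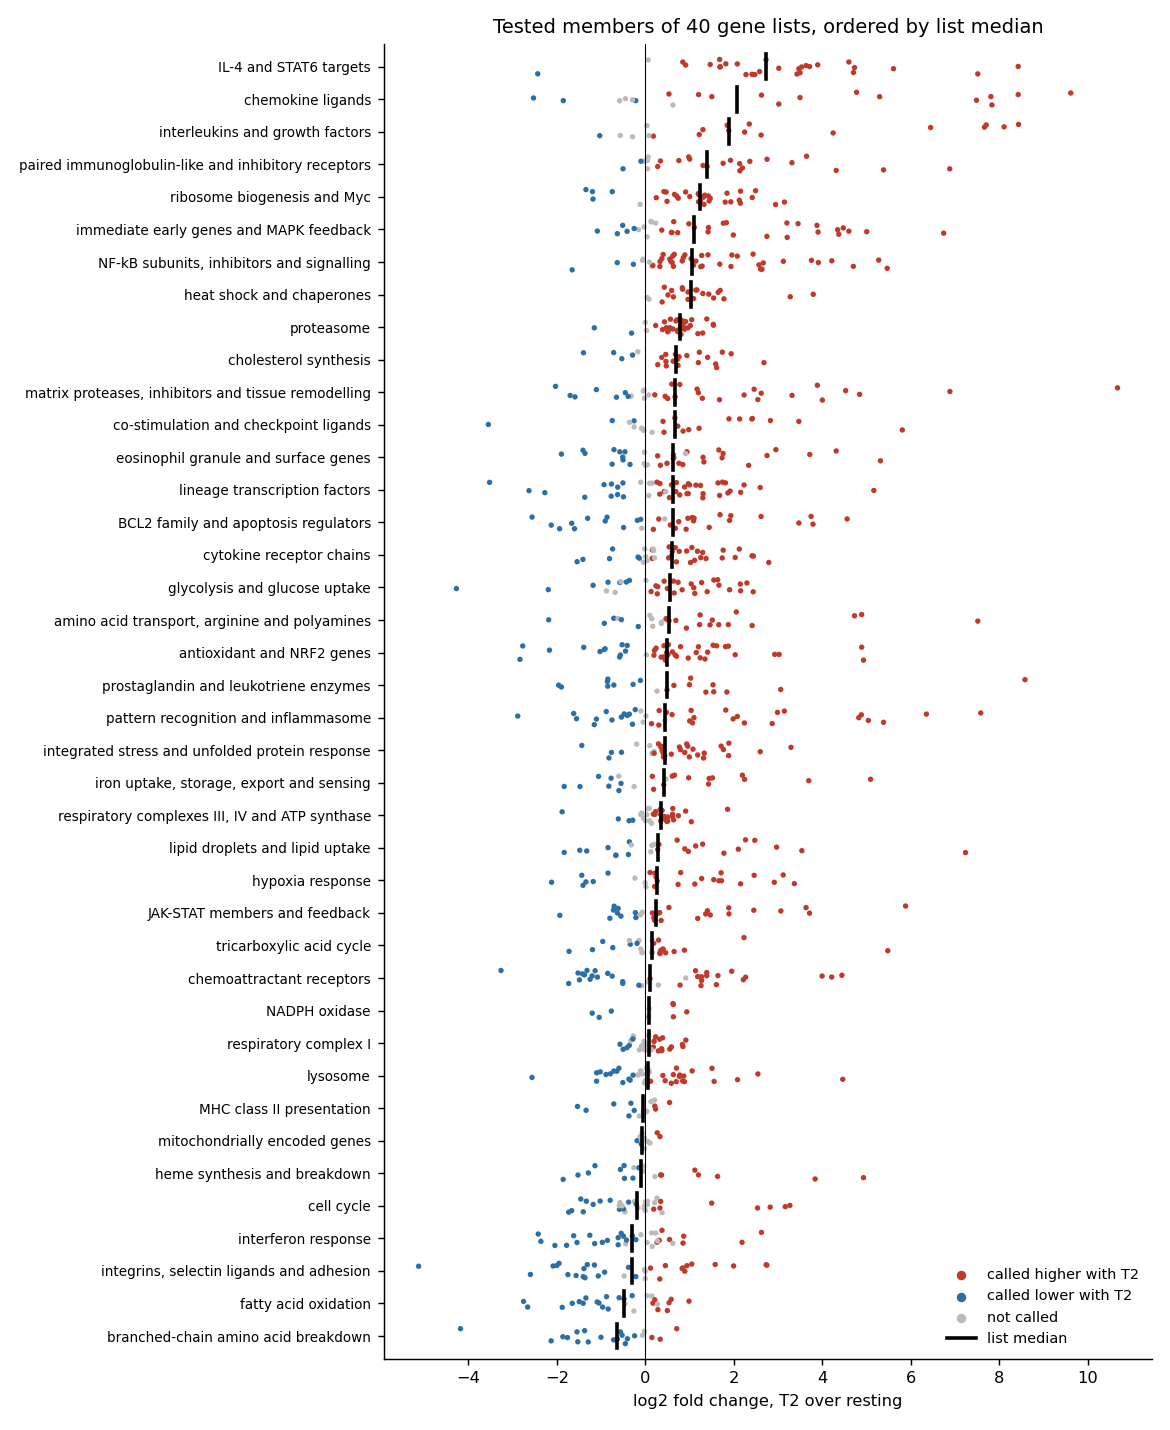
Each point is the log2 fold change, T2 over resting, of 1 tested gene in 40 gene lists, red where called higher, blue where called lower and grey where not called, with a black line at the list median. Medians run from -0.63 for branched-chain amino acid breakdown to 2.73 for IL-4 and STAT6 targets, against -0.01 over all tested genes.

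The lists overlap in 68 of 1335 genes. A member that passed the filter only through the group where it is high had to differ, and the counts above cover the tested members and not all listed genes. No list was tested as a set. In 4 lists the shares called higher and lower both lay within 10 percentage points of those of all tested genes. These were chemoattractant receptors, NADPH oxidase, heme and lysosome, and their counts of calls of any size set them apart from no other genes. At 2-fold, 40.5% of the tested chemoattractant receptors were higher and 29.7% lower, against 11.7% and 15.8% of all tested genes. The 2-fold counts were 5 and 4 of 20 for heme, 0 and 2 of 9 for NADPH oxidase and 6 and 4 of 39 for lysosome.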

How the data were processed

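Poly(A) RNA was sequenced in 3 T2 and 3 resting libraries, made per the labels' protocols with oligo(dT) beads and a kit of the NEBNext Ultra line; whether counting used strand is not given in the sources used here. Per the submitters' processing notes the tools were RSEM, StringTie 1.3.1, HISAT2, fastp 0.18.0 and Bowtie2 2.2.8, with the build mm10 and no role named. The authors deposited raw read counts per gene (whole numbers, 22274 genes) and FPKM (scaled to gene length and library size) in 1 table; the authors' fold changes and p-values were not used. Groups came from the sample titles. The other 15 libraries, in tables normalized apart, were not analysed here.

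Of 22274 identifiers 22219 matched a symbol in GENCODE M21 (GRCm38); of identifiers that share a symbol the lowest number kept it. Genes that passed filterByExpr were fitted by quasi-likelihood under R 4.3.3 with edgeR 4.0.16, which loads limma 3.58.1, after TMM scaling, and p-values were adjusted over the 11345 tested genes. Levels are CPM with TMM factors, given in the order of replicates 1 to 3. The common biological coefficient of variation was 0.0509. The script was tested on simulated data in which few genes changed, equally in both directions. In the data 76.1% of tested genes were called, a breadth of change that the simulation does not cover. The letters of the promoter motifs were set after earlier values had been seen, and a separate STAT6 motif was not searched. Replicates differed beyond sampling noise in every pair, so none was counted as a duplicate. This does not show that they came from separate mice or cultures. Counts carry no molecular identifiers.

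The groups compared, the 40 gene lists and the 12 marker lists were chosen with earlier results of these data known. Named genes are up to 5 rises and 5 falls per list and the 15 largest of each over all genes, at 10 CPM or more in the higher group and called, with fixed genes of type 2 responses; some that the rule would name are not reported here; others, named to show members of a pathway or of a low level, were chosen after their values were seen. The alternatives were upper-quartile and relative log expression factors, DESeq2 1.42.0, no filter beyond 1 count, a filter of 1 CPM in 3 libraries, a replicate block, and each library left out.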

Additional observations from a re-analysis of the deposited data

How the results depend on the processing

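The counts of genes called, at least 2-fold higher and at least 2-fold lower stayed within 1.5 times under all 12 alternatives. They were 8617, 1156 and 2061 with upper-quartile factors, 8030, 1380 and 1824 with DESeq2, and 8882, 1462 and 2052 without the filter on low counts. Leaving out 1 library gave 8300.0 to 8520.0, 1352 to 1383 and 1750.0 to 1842. No gene called in both fits turned its direction in any of the 12. Upper-quartile factors moved the median of all genes by -0.12 on the log2 scale and the share of higher among called genes to 42.8%, where it was 50.2%. Of 279 tested genes in the text, 273 kept their direction and their side of the threshold in every alternative run. Cd101, not called, took 0.00498 without the filter, ranged between -0.0445 and 0.00638 with 1 library left out, and was called lower with upper-quartile factors (-0.14, adjusted p 0.029). Csf2rb, Csf2rb2, Cx3cl1 and Mcl1 lost their calls as given above (Csf2rb2 0.04 with upper-quartile factors) and S100a8, not called, was called lower without T2 replicate 3 (-0.63, adjusted p 0.0198); the cause was not tested. The T2 libraries that stand apart went to 61 genes at 1 CPM in place of 10 and to 8 at 1.5-fold in place of 2-fold.

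The labels do not say that replicate numbers pair T2 with resting libraries. Correlations of deviations between same-numbered libraries were -0.07, -0.03 and -0.13, and no library correlated best with its own number. With a replicate block 8498 genes were called, 1330.0 at least 2-fold higher and 1792 lower, and 8452 of the 8632 calls were shared. Among the genes of the text the block ended the call of Mcl1 (adjusted p 0.052), called S100a8 lower (-0.38, adjusted p 0.0414) and changed no other call. Depth limits genes under about 1 CPM, few of which passed the filter.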

Other observations

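Per length, in the authors' FPKM, the most abundant genes of T2 libraries were Fth1, Tmsb4x, Ftl1, Actb and Srgn, and those of resting libraries mt-Co1, Tmsb4x, Actb, mt-Co2 and mt-Co3. Srgn, the core protein of granule proteoglycans, averaged 5294 ± 37.97 FPKM in T2 and 1883 ± 76.7 FPKM in resting eosinophils (SD, n = 3 each), rank 5 in T2 libraries and 14 at rest. Retnlg held rank 67 in T2 libraries and 9 at rest, with 675 ± 27.7 FPKM in T2 and 2716 ± 238 FPKM in resting eosinophils (SD, n = 3 each). Retnla, of the same family, held rank 20 in T2 libraries and 238 at rest. Ccl6, a chemokine of mouse myeloid cells, changed little in rank, 7 in T2 libraries and 6 at rest.

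The marker lists not given above had these summed levels. The 12 erythroid markers summed to 78.4 to 89.2 CPM in T2 and 104 to 116 CPM in resting libraries, and the 11 B cell markers to 342 to 382 CPM in T2 and 615 to 640 CPM in resting libraries, mostly Ighm (179.7 ± 14.5 against 445 ± 10.3 CPM, T2 against resting, SD, n = 3 each). Those of dendritic cells summed to 86.6 to 103 CPM in T2 and 49.5 to 57.1 CPM in resting libraries, and those of megakaryocytes and platelets to 289 to 306 CPM in T2 and 416 to 430.4 CPM in resting libraries. Markers of fibroblasts, endothelium and epithelium summed to 545 to 604 CPM in T2 and 209.6 to 217 CPM in resting libraries, mostly Pecam1, which eosinophils carry. The Y-linked gene Ddx3y had 107, 100.3 and 87.3 CPM in the T2 libraries, against 70.7, 64.1 and 71.01 CPM in the resting libraries. Their part in the results was not tested.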
